A study of Homo sapiens with 10 samples.

Results

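Baseline expression was described in U937 cells, a human monocytic line from a histiocytic lymphoma, that had been differentiated with interferon gamma and had no receptor cross-linking listed. The arrays titled Control-1 and Control-2, 2 of the 10 arrays of the series, were chosen by their titles alone. The other 8 arrays held the same line, also differentiated with interferon gamma, after cross-linking of an IgG receptor: the low-affinity receptor CD32 or the high-affinity receptor CD64, each for 2 h or 6 h, with 2 arrays in each of these 4 groups. The labels gave the control arrays no time and did not say whether duplicates came from separate cultures, so a p-value here covers the spread between arrays, which may be technical. For 1 CD32 2 h array the source name gives another receptor number, and its title was followed. Every group had received interferon gamma, so these data hold no level without it. U937 is a single established line, and its cells divide in culture.

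Monocytes are blood cells that take up particles, kill microbes and show antigen to T cells. Interferon gamma, a cytokine of T and natural killer cells, binds the receptor chains IFNGR1 and IFNGR2, which signal through the kinases JAK1 and JAK2. Genes of the response are known for a palindromic DNA element, the gamma-activated site, and for a second element, the interferon-stimulated response element, which interferon regulatory factors bind. In monocytes this programme is known for raising the IgG receptor CD64, MHC molecules, the immunoproteasome, guanylate-binding proteins and the chemokines CXCL9 and CXCL10.

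The sequences just before the start of 4 such genes show where these elements lie in genes whose control signals are given further on. They come from RefSeq (build GRCh38.p14), run 5′ to 3′ in the direction of the gene, and end at the base before the annotated start. Capitals mark a gamma-activated site, searched as TTCNNNGAA, or a response element, searched as GAAA, any 2 bases and GAAA again, each on both strands. The first is FCGR1A, which encodes CD64 (chr1:149782444-149782693, plus strand), with a gamma-activated site 93 to 85 bases before the start. The second is IRF1, a transcription factor (chr5:132490774-132491023, minus strand), with the same kind of element 124 to 116 bases before the start.
FCGR1A: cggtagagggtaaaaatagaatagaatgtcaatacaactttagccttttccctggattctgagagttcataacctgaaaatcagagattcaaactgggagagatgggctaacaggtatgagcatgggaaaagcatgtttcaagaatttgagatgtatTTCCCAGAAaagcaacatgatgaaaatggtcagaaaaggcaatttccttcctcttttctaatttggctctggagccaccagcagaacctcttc
IRF1: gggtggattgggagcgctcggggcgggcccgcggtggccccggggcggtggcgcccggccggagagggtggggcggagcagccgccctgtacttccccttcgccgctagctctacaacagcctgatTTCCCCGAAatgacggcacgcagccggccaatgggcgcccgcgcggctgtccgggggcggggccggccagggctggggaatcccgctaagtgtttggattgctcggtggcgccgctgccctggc

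The chemokine genes CXCL10 (chr4:76023498-76023747, minus strand) and CXCL9 (chr4:76007510-76007759, minus strand) have a response element match instead, 221 to 212 and 171 to 162 bases before the start.
CXCL10: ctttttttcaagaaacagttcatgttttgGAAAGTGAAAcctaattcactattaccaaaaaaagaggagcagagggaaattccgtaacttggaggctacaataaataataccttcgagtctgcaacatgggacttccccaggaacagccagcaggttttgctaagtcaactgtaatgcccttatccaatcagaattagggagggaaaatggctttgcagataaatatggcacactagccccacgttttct
CXCL9: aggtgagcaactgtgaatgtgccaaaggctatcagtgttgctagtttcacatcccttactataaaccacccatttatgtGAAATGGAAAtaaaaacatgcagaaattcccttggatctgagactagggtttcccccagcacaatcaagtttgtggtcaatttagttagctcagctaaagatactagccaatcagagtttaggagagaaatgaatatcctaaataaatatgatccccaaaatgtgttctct

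Of the 44 genes on the array that are known to respond to interferon gamma, 31 had a RefSeq window of 250 bases before to 50 after the start. In those 31 windows the response element was found in 13 (41.9%) and the gamma-activated site in 6 (19.4%). Among the 6200 windows of all genes on the array the shares were 3.26% and 6.76%. For genes known to respond to type I interferon, 21 of 27 windows (77.8%) held the response element and 6 (22.2%) the gamma-activated site. The 2 motifs can overlap in a window, a match of letters is not evidence of binding, and a window without one says only that these letters are not in it.

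The arrays carried 8746 probe sets besides 47 control probe sets, and the values were linear signal intensities. Of these probe sets 7840 had 1 gene symbol, 388 had several and 518 had none, and 7700 genes with 1 symbol were described, each by its probe set with the highest mean control signal. Signal near background was judged from 92 genes of liver, muscle, nerve, eye, pancreas, gut, germ line and skin: 90% of their values on the control arrays lay at or under 101.4. A probe set was called near background when both control arrays lay at or under 101.4, above background when both lay over it, and split otherwise. By this limit 4417 probe sets (50.5%) were above background, 3316 (37.9%) were near background and 1013 (11.6%) were split. A probe set in the top 10% by mean signal, 874 in all, is called high here, and one of the 87 in the top 1% very high. The lowest mean among the high probe sets was 1599 and the highest outside them 1597, and the same values for the very high ones were 11440 and 11320. A rank is one of signal and not of transcripts per cell, since probe sets differ in how well they bind: 122 genes had several probe sets, whose highest and lowest means differed by a median of 1.83-fold and by over 4-fold for 22 genes (18.0%).

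**Figure D1:**
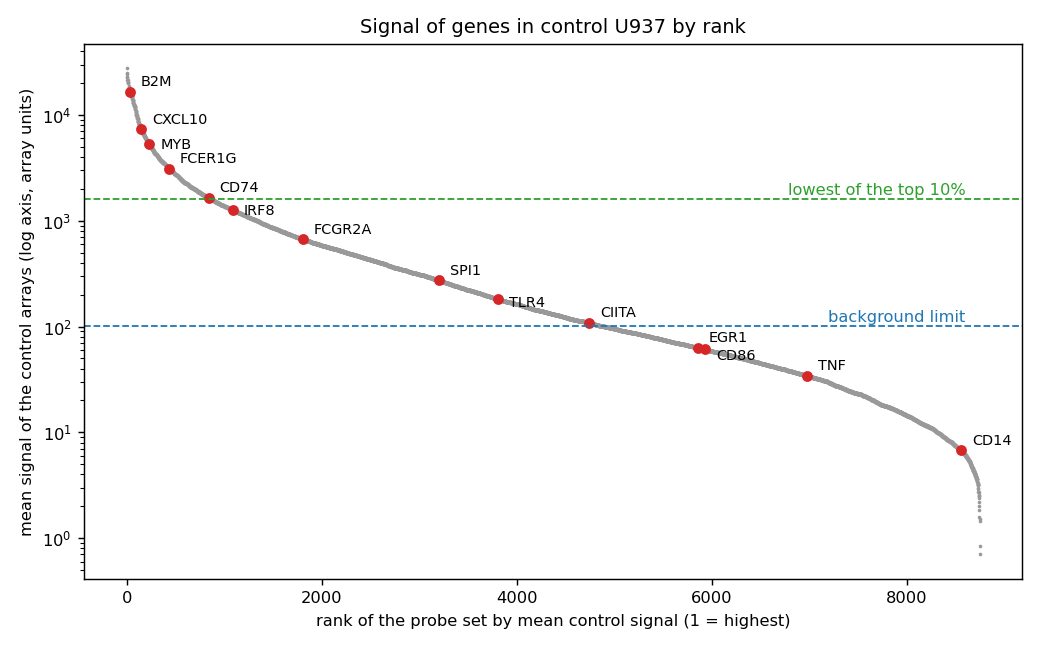
Mean control signal (log axis, array units) against rank for the 7700 genes with 1 symbol, with named genes in red, the background limit of 101.4 in blue and the lowest signal of the top 10%, 1599, in green. Beta-2-microglobulin (B2M), CXCL10 and MYB lie in the top 10%, while EGR1, CD86, TNF and CD14 lie under the background limit.

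The 2 control arrays gave nearly the same order among strongly expressed genes and differed more at low signal. Their Spearman correlation over all probe sets was 0.936, given as a description. Among the probe sets above background on both arrays, 72 of 4417 (1.63%) were over 2-fold apart, and among the 874 high ones 3 were. Over the 5430 probe sets above background on at least 1 array, 644 (11.9%) were over 2-fold apart, 579 of them higher on Control-1 and 65 higher on Control-2. The median signal was 152.4 on Control-1 and 112.2 on Control-2, although the trimmed mean was 500.6 on both. Low signals were thus mostly higher on Control-1, and single low genes are read only as near background or not. As a pair the controls had the lowest Pearson correlation on the log2 scale (0.968, against 0.974 to 0.980 in the 4 cross-linked groups), but by Spearman correlation they lay within the range of those groups (0.931 to 0.954).

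**Figure D2:**
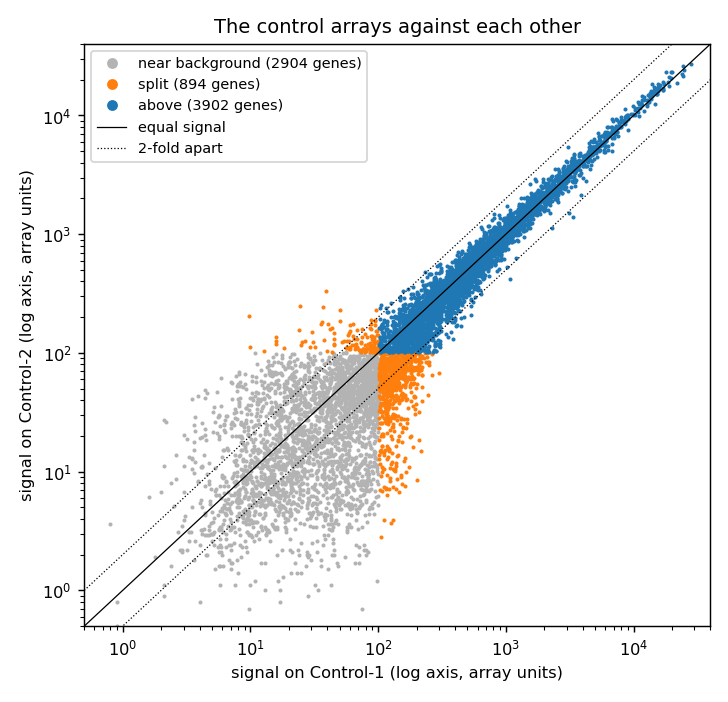
Signal of each of the 7700 genes on Control-1 and Control-2 (log axes, array units), coloured by class, with lines of equal signal and of a 2-fold difference. Genes above background lie close to the line of equal signal, while split genes are mostly those over 101.4 on Control-1 alone.

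Among genes above background on both arrays, the largest differences between the controls were in genes of low to middle signal. DTWD1 had 388.3 on Control-1 and 129.9 on Control-2, and the splicing regulator RBFOX2 had 449.0 and 167.4. In the other direction CHAF1B, a histone chaperone of replication, had 155.8 and 331.4, and ADAM17, the protease that sheds TNF from the cell surface, had 102.7 and 239.1. Values of this kind show the size of the spread at such levels, and with 1 array on each side the differences have no test.

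The first ranks were held mostly by the machinery of protein synthesis. Among ribosomal proteins, 20 of 29 large-subunit and 18 of 21 small-subunit genes were very high, against 61 of all 7700 genes (0.792%). RPS10 had 27987 on Control-1 and 27312 on Control-2, the highest mean of a gene with 1 symbol. The 74 probe sets with a ribosomal protein symbol held 16.4% of the summed signal, the 874 high probe sets 67.7%, and the 3316 near background 1.86%. Elongation factor EEF1A1, which brings aminoacyl-tRNA to the ribosome, had 18991 and 21167, and EEF2, which moves the ribosome along the message, 10746 and 13003. Of 29 translation factors 19 were high and 1, the muscle and nerve form EEF1A2 with 60.9 and 49.1, was near background.

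Genes of energy supply and protein quality were often high as well. Among 27 glycolytic genes 13 were high, led by GAPDH (18593 and 19238), enolase ENO1 (15414 and 17325), aldolase ALDOA (14447 and 15533) and lactate dehydrogenase LDHA (12848 and 12123). The 6 glycolytic genes near background were tissue forms, such as ENO2 of nerve with 16.8 and 14.8, PGAM2 of muscle with 8.4 and 5.5, and the glucose transporters SLC2A2 and SLC2A4. All 54 oxidative phosphorylation genes were above background and 36 were high, with the ATP synthase subunit ATP5F1A at 8665 and 9883. Chaperones had 17 of 32 genes high, with the mitochondrial HSPD1 at 12833 and 12549, and the proteasome 17 of 34. By comparison 9.58% of all genes were high and 37.7% near background.

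The cells carried the messages of dividing cells. All 35 mitotic genes and all 38 replication genes were above background on both arrays, with 15 and 11 of them high. CKS1B, a cyclin-dependent kinase subunit, had 4823 and 5400, the separase inhibitor PTTG1 had 4314 and 4112, and the spindle factor TPX2 3326 and 3890. Thymidylate synthase TYMS had 8539 and 11442, the ribonucleotide reductase subunit RRM2 8713 and 9035, and the helicase subunit MCM6 5277 and 5723. The inhibitor of cyclin-dependent kinases CDKN1A was near background with 37.0 and 16.5, as were the p53 regulator MDM2 with 43.1 and 14.5 and the cyclin CCND1 with 21.0 and 2.1. Another inhibitor, CDKN1B, was high with 2173 and 1966.

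**Figure D3:**
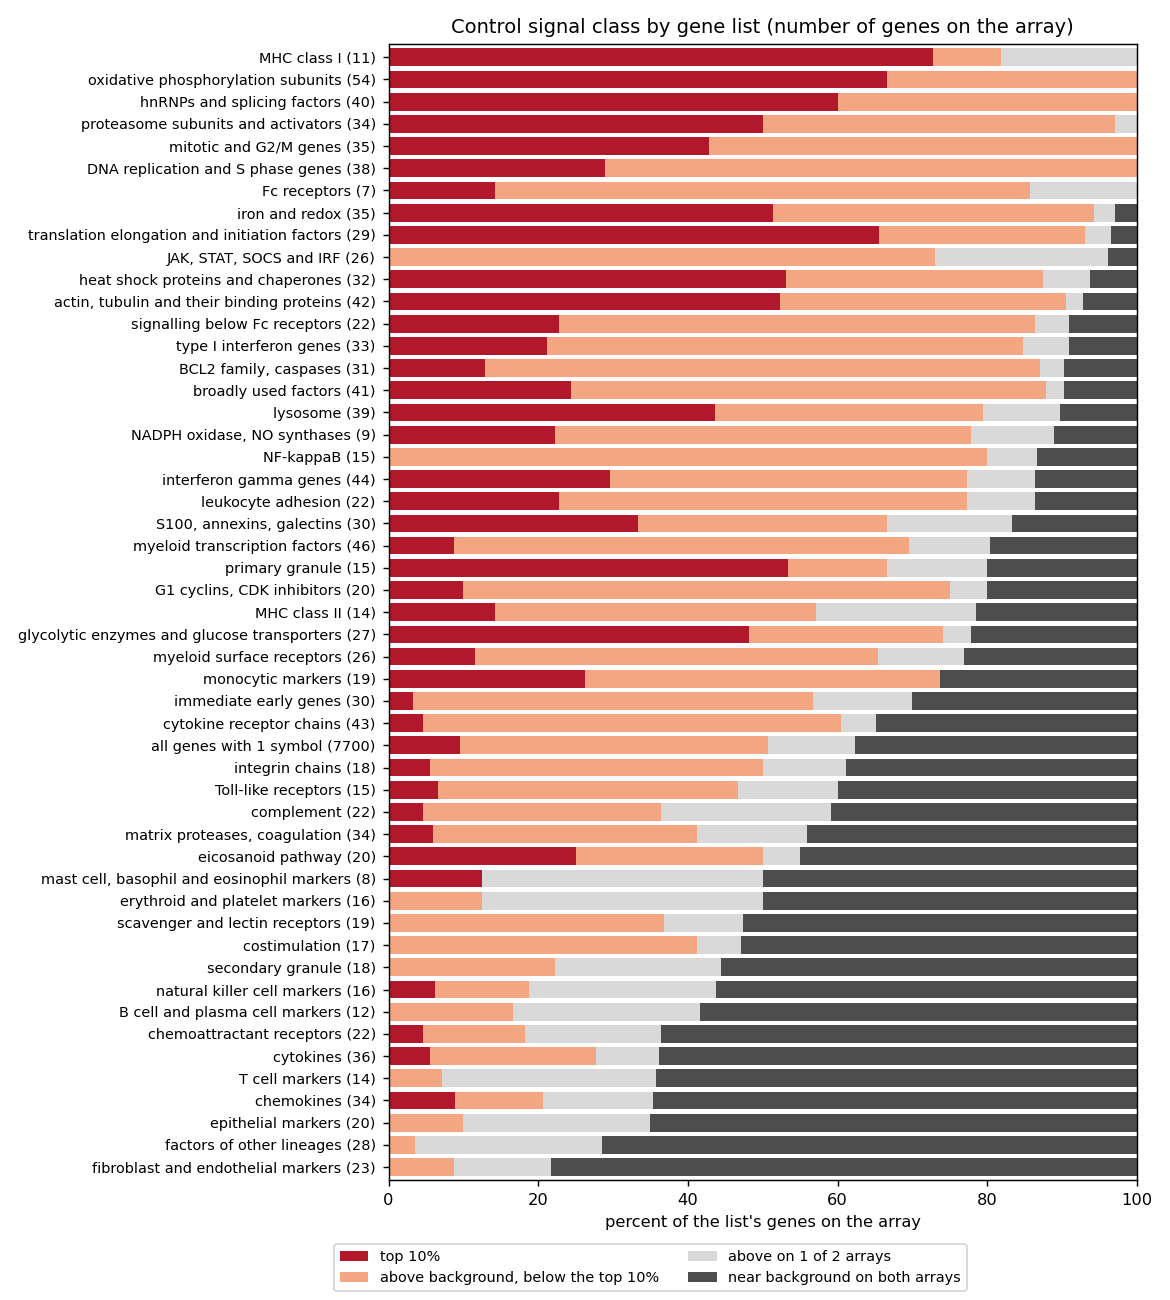
Percent of each gene list, leaving out the tissue-restricted reference genes and with its number of genes on the array, whose control signal was in the top 10%, lower but above background, split between the 2 arrays, or near background. The list plotted as MHC class I, which also holds peptide transport genes, has the largest share in the top 10% (8 of 11). Fibroblast and endothelial markers (18 of 23) have the largest share near background of the lists plotted.

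The line was set beside 19 monocytic markers that the array measured. Of these 14 were above background (73.7%, against 50.7% of all genes), and 5 of the 14 were high (26.3% of the 19, against 9.58%). The remaining 5 were near background (26.3%, against 37.7%). ITGB2, the shared beta chain of the leukocyte integrins, had 5921 and 5900, the nuclear myeloid antigen MNDA 2076 and 2136, and the signalling adaptor TYROBP 1585 and 1788. CD14, the co-receptor for lipopolysaccharide and a defining marker of blood monocytes, had 9.4 and 4.1. The scavenger receptor CD36 (91.7 and 25.2), the costimulator CD86 (69.7 and 52.1), the granule enzyme MPO and the GM-CSF receptor chain CSF2RA (23.2 and 44.4) were the other 4 near background. Lowest of the 14 above background were FCN1 (172.7 and 160.5) and CSF1R (115.9 and 113.4). Most of the 19 markers were thus above background, with CD14 near it.

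Markers of other cells were mostly near background or split. Above background were 1 of 14 T cell markers, 2 of 12 B cell markers, 3 of 16 natural killer cell markers, 2 of 16 erythroid and platelet markers, 2 of 20 epithelial markers and 2 of 23 fibroblast and endothelial markers, against 50.7% of all genes. The exceptions with the highest signal were TPSAB1, a mast cell tryptase, with 3390 and 4048, and NKG7, a granule membrane protein of cytotoxic cells, with 2110 and 2188. IGLL1, a surrogate light chain of B cell precursors, had 633.4 and 755.7, and the adhesion molecule PECAM1, which monocytes also carry, 970.4 and 1166. TPSAB1 has a near-identical neighbour, TPSB2, that its probes may also bind. The other probe sets of TPSAB1 had 1509 and 1651, and 9.5 and 7.5, the last near background. Of 8 mast cell, basophil and eosinophil markers TPSAB1 was the only 1 above background. The T cell receptor chain CD3E had 114.8 and 60.2 and CD3D 43.4 and 102.5, both split. U937 is a single line, but bulk RNA cannot tell a low signal in all its cells from a higher one in some. Which cells gave these signals was not tested.

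Receptors for antibody were the entry point of the experiment, and their messages were present before cross-linking. All 7 Fc receptor genes with a probe set of their own were over the background limit on at least 1 array, and 6 on both. FCER1G, the common gamma chain that carries the activation motif for CD64, was the only high one, with 3008 and 3204. FCGR2A, the activating form of CD32, had 652 and 682, and FCGR2B, its inhibitory form, had 411.2 and 437.6, though its probes may also bind FCGR2C. CD64 was measured by 1 probe set that the annotation gives to FCGR1A and the copies FCGR1BP and FCGR1CP together, with 1458 and 1723, 878th of 8746 and so just outside the top 10%. FCGRT, the neonatal receptor that recycles IgG, had 748.4 and 546.7, the low-affinity IgE receptor FCER2 178 and 213, and the IgA receptor FCAR 169 and 113. FCGR3B, a neutrophil form of CD16, was split with 144.5 and 37.9. For the CD32 genes FCGR2A and FCGR2B the 2 arrays were close and differed less than for FCAR or FCGRT. The CD64 probe set differed more between the arrays than FCGR2A and FCGR2B did.

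The signalling molecules below these receptors were also expressed. Of 22 kinases, phosphatases and adaptors 19 were above background and 5 were high: the phosphoinositide kinase PIK3CD (2433 and 2500), the phosphatase PTPN6 (1999 and 2159), the adaptor LAT2 (1948 and 2203), the inositol phosphatase INPP5D (2086 and 1857) and the receptor phosphatase PTPRC (1752 and 1805). PTPN6 and INPP5D are known as brakes on Fc receptor signals. The Src-family kinase LYN had 653.9 and 638.9, and SYK, the kinase that docks on the gamma chain, 227.4 and 200.5. SRC itself, with 13.4 and 12.5, and the ubiquitin ligase CBL, with 49.5 and 49.1, were near background on both arrays.

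Among chemoattractant receptors 1 gene was high. CXCR4, the receptor for CXCL12, had 7377 and 7252, which placed it in the top 1.70% of probe sets. CCR1, a receptor for CCL3 and CCL5, had 472.7 and 557.1, the complement receptor C3AR1 293.0 and 349.4, and CCR2, the receptor for CCL2, 225.1 and 116.6. Of the 22 genes 14 were near background (63.6%), among them CXCR6 (89.9 and 65.3), C5AR1 (63.7 and 70.3) and CCR7 (42.8 and 35.7). The formyl peptide receptor FPR1 was split with 123.1 and 56.0.

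Integrins showed an uneven pattern of chains. The beta chain ITGB2 was high, and of its alpha partners ITGAM, which forms complement receptor 3, had 481.5 and 480.6 and ITGAL 411.3 and 396.0. ITGAX, the alpha chain CD11c, was near background with 23.9 and 20.7. The fibronectin-binding chains ITGA4 (1023 and 1231) and ITGA5 (925.1 and 1069) were above background. Of 18 chains 7 were near background (38.9%, close to the 37.7% of all genes). Other adhesion molecules were mostly present, 17 of 22, with the tetraspanin CD63 at 4506 and 4565, the hyaluronan receptor CD44 at 2282 and 2603 and CD47, the signal against uptake, at 2353 and 2271.

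Cytokine receptors had middle signals. Of 43 chains 2 were high: IL2RG, the common gamma chain, with 2431 and 2200, and IFNGR2 with 1867 and 2143. The ligand-binding chain IFNGR1 had 878.9 and 851.9, so both chains of the interferon gamma receptor were expressed. The type I interferon receptor chain IFNAR1 had 181.6 and 136.4, and CSF1R, the receptor for the macrophage growth factor, lay just over the limit with 115.9 and 113.4. Of these 43 chains 15 were near background (34.9%, close to the 37.7% of all genes). They included IL3RA (30.7 and 5.4), IL2RA (44.9 and 8.2) and the interleukin 7 receptor IL7R (98.8 and 64.7).

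Among Toll-like receptors and adaptors 7 of 15 genes were above background (46.7%, near the 50.7% of all genes): the adaptor MYD88 (1325 and 1221) and the kinase IRAK1 (1999 and 2149) were well above it, TLR4 had 175.0 and 189.0 and TLR2 158.4 and 179.8. TLR1, TLR3, TLR7 and TLR8 were near background. Of 19 scavenger and lectin receptors 10 were near background (52.6%, against 37.7% of all genes), among them the macrophage receptors CD163 (12.9 and 20.7), MRC1 (74.0 and 8.1) and MSR1 (37.7 and 35.5). On the myeloid surface CD93, a receptor of progenitors and monocytes, was high with 2827 and 3159. The aminopeptidase ANPEP, or CD13, had 1414 and 1425, the inhibitory receptor LAIR1 1334 and 1366, and CD4 950.0 and 1092. TREM1 and TREM2, which amplify or dampen inflammation, were near background with 67.2 and 27.2, and 11.3 and 37.3.

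Antigen presentation was divided between the 2 MHC classes. Of 11 genes of class I and peptide transport 8 were high and none was near background, against 9.58% of all genes high. The 8 included the chaperones PDIA3 (4724 and 4974) and CANX (4419 and 4880). B2M, the light chain of class I, had 17027 and 16229, HLA-C 13757 and 16001 and HLA-B 12005 and 14428. Their probe sets can also bind other class I genes. The peptide-loading factor TAPBP had 1968 and 2899 and the peptide transporter TAP2 325.1 and 223.6. Class II genes lay lower: CD74, the invariant chain, had 1456 and 1864, HLA-DRB1 1598 and 1708 and HLA-DRA 856.9 and 967.0. HLA-DPB1 had 136.5 and 151.1, CIITA, the master activator of class II, was split with 140.3 and 76.8, and HLA-DQB1 was near background with 47.0 and 3.9. Other probe sets that the annotation gives to HLA-DQB1 together with HLA-DRB genes had over 1000 on both arrays, and one shared by HLA-DQA1 and HLA-DQA2 had 16.2 and 33.0. Of 17 costimulatory and dendritic cell genes none was high and 9 were near background, while CD40 had 357.0 and 326.6 and CD80 175.3 and 132.0.

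Most genes known to respond to interferon gamma were expressed. Of 44 genes 34 were above background, 13 were high, 4 were split and 6 were near background. The chemokine CXCL10 had 7291 and 7356, in the top 1.67% of probe sets, and CXCL9 4093 and 3896. The related CXCL11 had 181.1 and 134.0. The aminopeptidase LAP3 had 5981 and 7318, the tryptophanyl-tRNA synthetase WARS1 5369 and 6611, and the ISG15-conjugating enzyme UBE2L6 4523 and 4570. The immunoproteasome subunits PSMB8 (4376 and 4562) and PSMB9 (3998 and 3787) and the activator PSME1 (3752 and 3734) were high, and PSMB10 had 1171 and 1140. Guanylate-binding proteins were present, with GBP2 at 1346 and 1483 and GBP1 at 835.0 and 593.4. IDO1, the enzyme that degrades tryptophan, was low with 187.3 and 139.0, and NOS2, the inducible nitric oxide synthase, was split with 116.2 and 99.5. The 6 genes near background were JAK2 (4.2 and 11.1), the complement genes C1R, C1S and SERPING1, FGL2 and IL18BP.

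The transcription factors of the pathway had middle signals. None of 26 JAK, STAT, SOCS and IRF genes was high and 19 were above background. IRF8, which directs monocyte development, had 1275 and 1253, IRF1 825.5 and 815.2, STAT3 907.9 and 838.8 and JAK1 630.2 and 687.1. SOCS1, the feedback inhibitor, was split with 113.2 and 91.2.

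Genes known for type I interferon were present at lower signals. Of 33 genes 28 were above background and 7 were high, led by the membrane proteins IFITM2 (4645 and 5091) and IFITM1 (2997 and 3121), which are close copies of each other and of IFITM3. ISG15, the ubiquitin-like modifier, had 520.6 and 805.9, the helicase IFIH1 262.4 and 329.0, IFIT1 264.2 and 214.2, and MX1 116.7 and 103.9. IFI44, IFI44L and IFIT5 were near background, IFI44L with 42.8 and 4.3. The list median was 296 for type I genes and 631 for interferon gamma genes, beside 131 for all genes. BST2 counts in both lists.

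**Figure D4:**
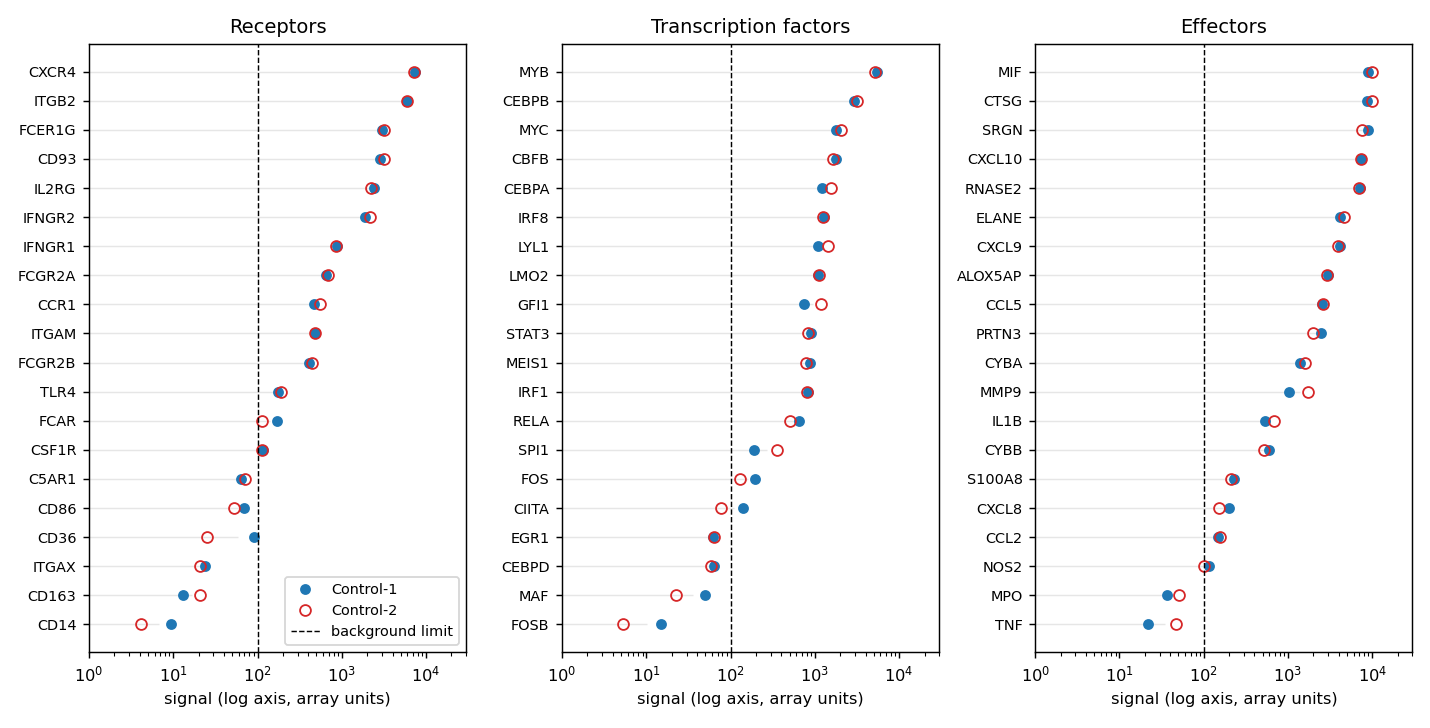
Signal of 20 receptors, 20 transcription factors and 20 effector genes on Control-1 (filled) and Control-2 (open) with the background limit of 101.4 as a dashed line (log axis, array units). CXCR4, MYB and MIF lead their panels, and CD14, FOSB and TNF are the lowest shown.

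Several transcription factors of immature myeloid cells were well expressed. MYB, which keeps progenitors dividing, had 5437 and 5102, the top 2.65% of probe sets, and MYC 1788 and 2059. CEBPB, a factor of monocytes and of inflammation, had 2942 and 3123, CBFB, the partner of RUNX proteins, 1776 and 1641, and CEBPA, the granulocyte and monocyte factor, 1217 and 1536. The progenitor factors LYL1 (1089 and 1418), LMO2 (1080 and 1133), GFI1 (743.4 and 1181) and MEIS1 (876.5 and 785.6) were all above background. SPI1, or PU.1, the central factor of the myeloid lineage, had 188.7 and 357.0, a 1.89-fold gap between the arrays. Of 46 myeloid and progenitor factors 4 were high (8.7%, close to the 9.58% of all genes), and 32 in all were above background (69.6%, against 50.7%). Near background were 9 (19.6%, against 37.7%), among them CEBPD (62.7 and 58.9), MAF (49.7 and 22.3), TAL1 (44.2 and 44.8) and GFI1B (44.3 and 44.3).

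Factors of other lineages were seldom detected: 20 of 28 were near background, 7 were split and 1 was above background. By family, 11 of 15 SOX genes were near background, but SOX4 was high with 1799.1 and 1515.6. Of 22 HOX genes 12 were near background (54.5%, against 37.7% of all genes). All 10 WNT ligands and all 16 cadherins measured were near it. Channels and transmitter receptors were also mostly near background, with 45 of 59 potassium channels and 11 of 12 GABA receptors near background. Solute carriers (84 of 170) and zinc finger genes (39 of 94, 41.5%) were nearer the 37.7% of all genes.

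Immediate early genes as a list lay close to all genes before cross-linking, and single members differed widely. Of 30 such factors and phosphatases 17 were above background (56.7%, against 50.7% of all genes) and 9 near it (30%, against 37.7%). One of them, the antiproliferative gene BTG1 with 1705 and 1556, was high. EGR1 had 62.4 and 63.4, FOSB 15 and 5.3, JUN 87.1 and 51.3 and FOS 192.0 and 128.2. IER2 (1427 and 1594) and JUND (649.0 and 646.0) were well above background. NF-kappaB genes were present, 12 of 15, with the feedback inhibitor TNFAIP3 at 1606 and 1362, NFKBIA at 644.7 and 540.5 and the subunit RELA at 650.1 and 507.7.

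Of the 15 genes listed for the primary granule, a store of immature myeloid cells, 8 were high (53.3%, against 9.58% of all genes). The serine protease cathepsin G, CTSG, had 8734 and 9971, the granule proteoglycan SRGN 9022 and 7592, the cysteine protease inhibitor CST7 7668 and 8734, and the ribonuclease RNASE2 7145 and 6994. The neutrophil elastase gene ELANE had 4173 and 4637, its inactive relative AZU1 3305 and 4192 and PRTN3 2493 and 1981. MPO, the peroxidase of the same granule, was near background with 36.4 and 50.3. Secondary granule and mature neutrophil genes showed none high among 18 and 10 near background, and the highest was the gelatinase MMP9 with 1020 and 1739.

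Lysosomal and oxidase genes were broadly present. Of 39 lysosomal genes 17 were high, with the membrane protein LAMP1 at 12022 and 10943, the thioesterase PPT1 at 7865 and 7994 and cathepsins CTSC (3149 and 3548) and CTSB (3084 and 3234). Of the superoxide-producing oxidase, the membrane subunits CYBA and CYBB had 1394 and 1606, and 595.5 and 525.6, and the cytosolic NCF4 had 1266 and 1534. NCF1 shares its probe set with the copies NCF1B and NCF1C, which had 309.1 and 345.7. S100 proteins, annexins and galectins were high in 10 of 30 cases, with galectin LGALS1 at 8536 and 9783 and S100A4 at 7908 and 9614. The monocyte and neutrophil proteins S100A8 (228.0 and 208.3) and S100A9 (209.0 and 160.7) were low.

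Secreted inflammatory mediators were mostly near background. Of 36 cytokines 23 were near it (63.9%), among them TNF with 21.6 and 47.0, and 2 were high: MIF, a constitutively stored factor, with 8913 and 10060 and TGFB1 with 1876 and 2076. IL1B had 531.5 and 686.7 and its antagonist IL1RN 302.0 and 276.6. Of 34 chemokines 22 were near background (64.7%) and 3 were high, the interferon-induced CXCL9 and CXCL10 and CCL5, with 2547 and 2637. The neutrophil attractant CXCL8 had 197.8 and 150.8 and the monocyte attractant CCL2 147.7 and 156.2. In the lipid mediator pathway ALOX5AP, the partner of 5-lipoxygenase, was high with 2948 and 2930, and PTGS1 had 1323 and 1154. Of its 20 genes 9 were near background (45%, beside 37.7% of all genes), PTGS2 and ALOX5 among them.

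The control level was set beside the 8 cross-linked arrays with limma, as the mean of the 4 cross-linked groups minus the control, on log2 values with a floor of 37.5 and Benjamini-Hochberg adjustment over 7708 probe sets. Of these, 739 (9.59%) were higher and 747 (9.69%) lower on the cross-linked arrays at an adjusted p under 0.05. Without Control-1 the lower count was 458. The 4 groups share the control arrays and differ among themselves, so an average can hide a group that did not move. By control class, 66 of 2279 tested probe sets near background were higher and 18 lower, and of the 874 high ones 109 were higher and 220 lower. A probe set near the floor can hardly be called lower. The classes also come from the same control arrays that the contrast uses, so being picked as high favours a lower call. These counts therefore depend on the class itself.

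Several of the genes with high control signal were lower after cross-linking. CXCR4 ranged from 3287 to 4833 on the 8 cross-linked arrays, all under both controls, a log2 difference of -0.92 ± 0.08 (SE, adjusted p = 1.486e-05). MYB was lower by the same measure, -1.13 ± 0.09 (adjusted p = 1.486e-05), with 1756 to 3198, and MYC, -1.70 ± 0.11 (adjusted p = 3.534e-06), with 329 to 1347. MEIS1 (155 to 308) and GFI1 (203 to 432), above background but not high in control, were lower too, at log2 differences of -1.82 and -1.65. Among all 6803 tested genes 640 were lower and 659 higher, and the list counts from here on are to be read beside these. Of 45 tested myeloid and progenitor factors 11 were lower (7 without Control-1) and 9 higher. Of 35 mitotic genes 19 were lower, with a median log2 difference of -0.32 beside -0.08 for all genes. That count was 9 without Control-1 and 6 without Control-2. By limma none of the 35 was higher, also at an unadjusted p under 0.05. Replication genes were lower in 17 of 38 (9 without Control-2) and higher in 5 (3 without Control-1). In the primary granule list 4 of 15 genes were lower, with AZU1 at 974 to 3280 and PRTN3 at 715 to 1999. For CST7, one of these 4, the adjusted p was 0.0885 without Control-2.

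Genes of the interferon lists behaved unevenly. In the interferon gamma list 10 of 44 were higher and 4 lower, beside 659 and 640 of all 6803 tested genes. Of the 33 type I genes 19 were higher. In the type I list limma called none lower, and at an unadjusted p under 0.05 the counts were 24 higher and 0 lower. IRF1 ranged from 339 to 797 on the cross-linked arrays, a log2 difference of -0.88 ± 0.12 (adjusted p = 0.00058), and IRF8 from 532 to 992, -0.86 ± 0.13 (adjusted p = 0.00097). The other 2 lower genes of that list, GBP2 and CFB, kept their call in 4 and 5 of 15 alternative settings, with adjusted p = 0.248 for GBP2 without Control-2 and 0.154 for CFB without Control-1. CXCL10 was higher on average by 0.49 ± 0.07 (adjusted p = 0.00047), yet its mean of 5863 in the CD64 2 h group lay under both controls and that of 18830 in the CD32 6 h group over them. ISG15 was higher by 2.03 ± 0.15 (adjusted p = 6.0e-06), with group means of 710 for CD64 at 2 h and 8291 for CD64 at 6 h. HLA-DRA was higher by 1.01 ± 0.09 (adjusted p = 2.255e-05), with group means from 825 to 2985, the lowest again at CD64 2 h.

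**Figure D5:**
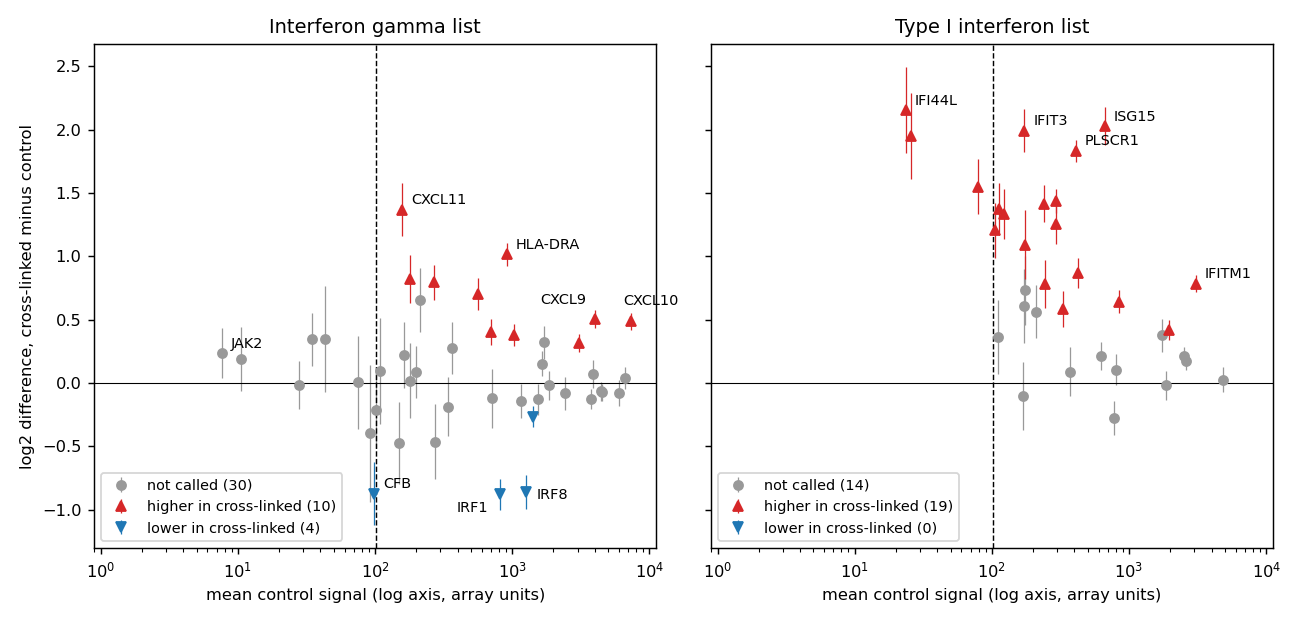
Log2 difference of the cross-linked arrays from control (error bars, SE) against mean control signal (log axis, array units) for the 44 interferon gamma and 33 type I interferon genes, with the background limit dashed. Upward triangles mark genes higher on the cross-linked arrays (10 and 19), downward triangles lower ones (4 and 0); IRF1 and IRF8 are among the lower genes of the left panel.

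Of 30 immediate early genes 16 were higher after cross-linking and 3 lower (0 without Control-1). EGR1, at 62.4 and 63.4 in control, ranged from 127 to 1038, with its mean of 958 in the CD32 6 h group and 143 to 178 in the other 3 groups. CDKN1A, near background in control, ranged from 118 to 1132. CCL2 ranged from 780 to 7226, a log2 difference of 3.48 ± 0.12 (adjusted p = 3.248e-08), and CXCL8 from 247 to 2456. The complement receptor C5AR1 and the costimulator CD83, near or just over background in control, were higher by 1.75 and 2.05 on the log2 scale. Of the Fc receptors FCGR2B (463 to 1016) and FCAR (297 to 729) were higher on every cross-linked array than on both controls, at 0.74 ± 0.10 (adjusted p = 0.00038) and 1.73 ± 0.20 (adjusted p = 0.00014), while FCGR2A (596 to 737) and the CD64 probe set (1206 to 2279) overlapped the controls and were not called. By limma none of 18 integrin chains and none of 11 genes of class I and peptide transport was called, which does not show that they were equal. For B2M, HLA-C and HLA-B the average joined groups on both sides of the controls. B2M had group means of 23851 for CD32 at 6 h and 9847 for CD64 at 6 h. HLA-C had 20832 and 9696 in the same groups, and HLA-B 18482 and 9107. Single groups were not tested. At an unadjusted p under 0.05, 1 integrin chain was higher and 1 lower, and of the class I and peptide transport genes 1 was higher and 2 lower. Without the duplicate CD32 2 h array 1 gene of each list was called higher.

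Few genes crossed the limit between control and all 8 cross-linked arrays. From near background to above it 18 genes crossed, beside 2904 genes near background in control. The reverse held for 14 genes, beside 3902 above background in control. RAPGEF2, an exchange factor for RAP proteins, had 76.1 and 71.8 in control and 227 to 571 after cross-linking, and MALT1, a signalling protease of the NF-kappaB pathway, 100.2 and 86.6 against 171 to 417. In the other direction the kinase CDK10 had 176.3 and 170.3 in control and at most 39.1 after cross-linking. These genes were picked for this crossing, so it is a description.

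Windows before the gene starts were also compared between control classes, as a description. The median ratio of observed to expected CpG pairs was 0.864 for the 626 high genes with a window, 0.591 for the 2197 near background and 0.778 for all 6200. The letters TATAAA, on either strand, occurred in 10.1% of high and 13.6% of near-background windows and in 30.8% of the 65 windows of the tissue-restricted reference genes, beside 9.73% of all. CCAAT, on either strand, was found in 23 of 29 windows of mitotic genes (79.3%) and 9 of 11 of class II genes (81.8%), against 36.9% of all. Ribosomal protein windows held AGGAAG, a core of ETS factor sites, in 26 of 44 cases (59.1%), against 34.7% of all windows.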

How the data were processed

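Total RNA of U937 cells was measured on 10 one-colour oligonucleotide arrays. The deposited values were linear signal intensity, 1 per probe set and array, which the submitters had scaled: without the lowest and highest 2%, the mean was 500.6 on both controls. The software behind it is not given in the sources used here, and no detection calls were used. Symbols came from the platform annotation.

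Ranks and classes used the deposited intensity of the 2 control arrays. For the test, values under 37.5 (percentile 25 of all values) were set to it, log2 was taken, and probe sets over it on at least 2 arrays were fitted with limma 3.58.1 in R 4.3.3, 1 term per group, 5 residual degrees of freedom, eBayes with trend, tests two-sided. The code was tested on simulated data. The array number limits the precision.

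The 51 gene lists (1306 genes on the array) were chosen with earlier results of these data known. Named genes were the highest 30, all Fc receptors, per list up to 8 of the highest and 5 near background, any member of lists of up to 25, and up to 3 called members per list; further list members were named after their values were seen. Genes on chromosome Y and XIST were left out. Alternatives were the background limit, floor, filter, quantile normalization, eBayes without trend, the log2 mean, another probe set per gene, and leaving out each array.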

Additional observations from a re-analysis of the deposited data

How the results depend on the processing

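The count near background moved with the limit used. With it at percentile 75 or 95 of the reference genes, 2372 or 4223 probe sets were near background, and with it at the floor of 37.5 there were 1429, against 3316. With 1 control array alone the count was 3855 to 4166, and 4580 to 4891 were above background. For probe sets over 2-fold apart between the controls, the count was 298 with the floor doubled, 416 with quantile normalization and 72 when both arrays had to be above background, against 644. Higher calls on the cross-linked arrays numbered 540 to 718, and lower calls 458 to 713, when 1 array was left out. The count of 458 was without Control-1. None of the 345 called list genes changed sign in any setting run, and 218 to 339 were still called. Mitotic genes lower on the cross-linked arrays numbered 8, and replication genes 11, with eBayes without trend, against 19 and 17. Of 102 list counts, 0 to 17 moved by setting. No paired analysis was possible because the labels number only the control arrays. With 2 arrays per group, signals near the limit could not be told apart from background.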
